A study of Mus musculus with 8 samples.

Results

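Levels of 7 homeobox genes were followed across 8 RNA-sequencing libraries of mouse haematopoietic stem and progenitor cells (HSPCs). The genes were Hoxa3, Hoxa5, Hoxa7, Hoxa9 and Hoxa10 of the Hoxa cluster and Meis1 and Pbx3, whose proteins bind DNA together with HOX proteins. They were chosen by name, and all 7 were found among the 24421 genes of the count table. The study asked what adding PRMT1, an arginine methyltransferase, did to cells that lack beta-catenin (Ctnnb1, the effector of canonical Wnt signalling) and Hoxa9, the pair of genes named in the series title. There were 4 groups of 2 libraries. WTEV was wild-type cells carrying an empty vector, dKOEV was double-knockout cells carrying the same empty vector, dKOMut was double-knockout cells given a catalytically inactive PRMT1 and dKOPRMT was double-knockout cells given wild-type PRMT1. All groups were transduced, and per the series' design text the cells were taken from mice after a first transplant. The source and cell type labels call all 8 libraries dKO HSPCs, the WTEV pair included, so the groups follow the titles and the genotype labels. Alleles, the Cre line, the promoter of the vector, ages, recipient cells, and whether replicates came from separate mice are not stated in the labels. The p-values therefore speak only of the spread among these 8 libraries, and that spread may be technical.

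HOX proteins are homeodomain transcription factors that on their own recognise short, similar DNA sites. MEIS and PBX proteins belong to the TALE class of homeodomain factors, dimerise with each other and join HOX proteins on DNA, which lengthens the recognised site. In blood, the 5' Hoxa genes and Meis1 are high in stem and early progenitor cells and are switched off as the cells mature, and HOXA9 with MEIS1 is a long-studied driver of acute myeloid leukaemia.

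In the count table (GRCm38) the Hoxa genes lie on the minus strand of chromosome 6. Hoxa9 spans 52223097 to 52227370, Hoxa7 spans 52215624 to 52218573, Hoxa10 spans 52231197 to 52240854 and Hoxa5 spans 52201754 to 52204587. The Hoxa3 model runs from 52169062 to 52213067, across Hoxa4, Hoxa5 and Hoxa6, and shares 418 of its 2543 exonic bases with the antisense genes Hoxaas2 and Hoxaas3, so its counts are uncertain because no label states the strand setting of the counting. Meis1 lies on chromosome 11 from 18880428 to 19018969 and Pbx3 on chromosome 2 from 34171457 to 34372045, both on the minus strand.

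RefSeq windows of 300 bases around the start site (250 before and 50 after, GRCm38.p6) were found for 6 of the 7 members, all but Pbx3. The bases before the start site that lie in no annotated exon are printed below for the 3 genes that changed most clearly (Hoxa9, Hoxa7 and Meis1) and for Hoxa5, a neighbour that did not pass the test. CG pairs, which the CXXC domain of the Hox activator KMT2A binds when unmethylated, are in capitals, and the rest is in lower case.
Hoxa9, chr6:52227371-52227620, minus strand: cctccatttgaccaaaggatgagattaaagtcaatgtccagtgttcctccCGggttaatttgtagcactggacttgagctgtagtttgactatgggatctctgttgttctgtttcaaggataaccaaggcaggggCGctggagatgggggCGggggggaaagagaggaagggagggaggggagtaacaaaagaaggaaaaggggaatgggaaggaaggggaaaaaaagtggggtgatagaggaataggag
Hoxa7, chr6:52218712-52218823, minus strand: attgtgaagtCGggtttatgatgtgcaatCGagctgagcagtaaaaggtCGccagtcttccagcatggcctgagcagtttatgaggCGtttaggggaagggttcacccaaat
Hoxa5, chr6:52204588-52204837, minus strand: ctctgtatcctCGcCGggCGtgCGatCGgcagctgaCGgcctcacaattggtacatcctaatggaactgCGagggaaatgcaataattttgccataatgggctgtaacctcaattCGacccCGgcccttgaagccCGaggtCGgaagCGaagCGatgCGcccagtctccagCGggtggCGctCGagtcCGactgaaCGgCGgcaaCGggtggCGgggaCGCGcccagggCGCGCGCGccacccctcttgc
Meis1, chr11:19018986-19019219, minus strand: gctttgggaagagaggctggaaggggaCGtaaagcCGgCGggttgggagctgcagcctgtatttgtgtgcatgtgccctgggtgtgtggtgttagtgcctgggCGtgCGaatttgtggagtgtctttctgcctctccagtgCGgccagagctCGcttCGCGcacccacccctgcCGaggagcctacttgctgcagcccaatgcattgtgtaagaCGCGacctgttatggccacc
CG pairs and motifs were counted only in the 250 bases before the start site of each window. There the Hoxa9 window held 3 CG pairs and that of Hoxa7 held 7, against a median of 6 over 32851 RefSeq windows. The Hoxa5 window held 28, that of Hoxa3 held 18 and that of Meis1 held 13. Hoxa10 has a window at each of 2 start sites, with 7 and 20. The PBX-HOX composite TGATNNAT, read on both strands, was in 7.68% of all windows and in none of the members' windows. The TCF/LEF core CTTTGAT was in 3.21% of all windows and also in none of them. The MEIS core TGACAG was in 15.9% of all windows and, among the members, in the Hoxa3 window only, at position -13 from the start site. The first and the second of these motifs can share the letters TGAT. No match says only that these letters are not in those 250 bases. The 50 bases after the start site were not searched.

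Library totals ran from 15531344 to 22329749 counts. Levels are in CPM, each count scaled to a common library size, with sizes adjusted by the trimmed mean of M-values. Each difference is given on the log2 scale with its standard error (SE), between 2 groups of 2 libraries. A gene "rose" or "fell" where edgeR's quasi-likelihood test gave a Benjamini-Hochberg adjusted p under 0.05 over the 12744 genes that passed the filter on low counts. Prmt1 averaged 190 CPM in WTEV, 192 in dKOEV, 1751 in dKOMut and 978 in dKOPRMT, so the libraries labelled as carrying PRMT1 are the high ones. Ctnnb1 was read at 444 and 455 CPM in WTEV and 360 to 391 CPM in the double-knockout libraries, and with the deleted exons not stated these gene-level counts do not check the deletion. The genotype label of dKOMut replicate 2 says PRMT2, while its title and its Prmt1 level of 1758 CPM match the other dKOMut library. Xist was read in the WTEV libraries only and the Y-linked Ddx3y in the 6 double-knockout libraries only. Sex and genotype therefore cannot be told apart in any comparison with WTEV.

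All 7 members passed the filter, which asks for about 0.505 CPM in at least 2 libraries. Hoxa7, Hoxa9, Meis1 and Pbx3 reached that level in all 8 libraries and Hoxa5 in 7. Hoxa10 reached it in the 4 WTEV and dKOEV libraries only. Hoxa3 reached it in the 2 WTEV libraries only, so it entered the test through the group where it was high.

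Per kilobase of exon, Meis1 was the highest member in each group. In WTEV it stood at 7.34 ± 0.0285 RPKM (mean ± SD, n = 2), and the order below it was Hoxa9 at 5.49 ± 0.216, Hoxa7 at 3.04 ± 0.744 and Pbx3 at 2.29 ± 0.0395. No library of these 4 genes overlapped one of its neighbour in that order. Hoxa5 (0.554 ± 0.175), Hoxa3 (0.419 ± 0.143) and Hoxa10 (0.381 ± 0.0783 RPKM) followed, and neighbours among these overlapped. In the double-knockout groups the order changed below Meis1. Pbx3 came next with 1.97 to 2.56 RPKM on average, overlapping Hoxa9 in dKOEV, and Hoxa9 and Hoxa7, at 0.872 to 1.46 RPKM, overlapped each other in all 3 groups. Hoxa3 and Hoxa10 were the lowest, at 0.0528 to 0.237 RPKM.

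**Figure D1:**
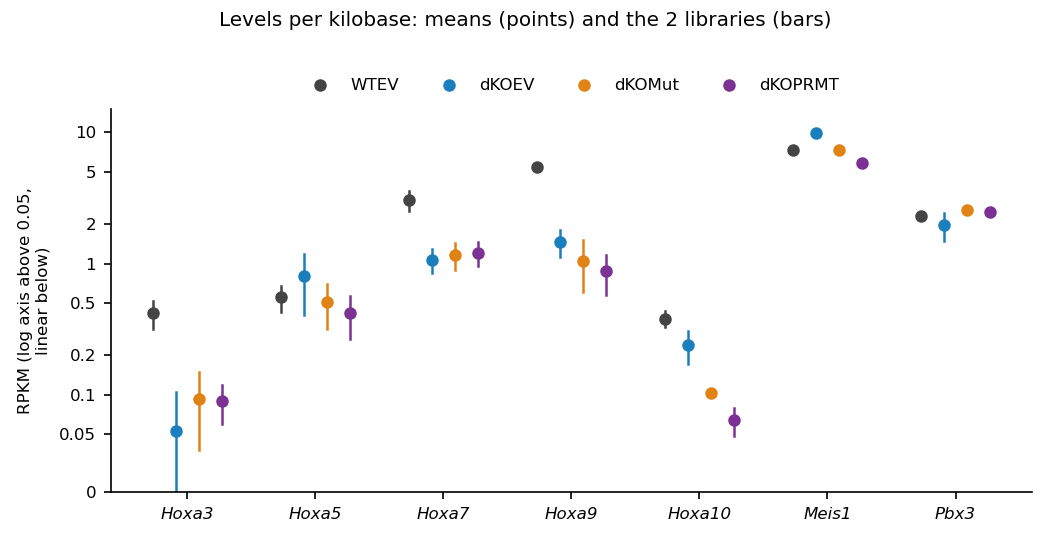
Mean level per kilobase (RPKM, points) of the 7 members in each group, with bars joining the 2 libraries; the axis is logarithmic above 0.05 and linear below. Meis1 is highest in every group, and Hoxa9 falls from 5.49 RPKM in WTEV to between 0.872 and 1.46 in the double-knockout groups.

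Hoxa9, one of the deleted genes and a factor that maintains progenitor self-renewal, fell in all 3 double-knockout groups. Its level was 18.2 and 17.2 CPM in the WTEV libraries. It was 5.79 and 3.63 CPM in dKOEV, 4.85 and 1.95 in dKOMut and 3.76 and 1.87 in dKOPRMT. Every double-knockout library was thus far below both wild-type ones, but reads remained in all 6, from 36 to 104 counts. The labels do not give the deleted exons, so these gene-level counts cannot show whether the remaining reads lie outside the deleted part. Hoxa9 fell by 1.93 ± 0.32 on the log2 scale in dKOEV against WTEV (adjusted p = 9.4e-05), to 26.6% of the WTEV mean. Against WTEV it also fell in dKOMut (log2 fold change -2.36 ± 0.32, adjusted p = 4.7e-06) and in dKOPRMT (-2.65 ± 0.33, adjusted p = 1.1e-06). These 3 calls held in each alternative run, with adjusted p up to 0.0225. The 3 double-knockout groups overlapped one another: the log2 difference of dKOPRMT from dKOEV was -0.72 with a 95% interval of -1.45 to 0.02 (adjusted p = 0.206), and that of dKOMut from dKOEV was -0.43 (-1.14 to 0.29, adjusted p = 0.510). Without dKOMut replicate 1, the library with the higher Hoxa9 of its group, the latter became -1.24 with an adjusted p of 0.0427.

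Hoxa7, whose start site lies at -8.80 kb from that of Hoxa9 (negative distances are downstream on the shared strand), is a close relative that is also active in myeloid progenitors. Its level was 6.95 and 4.90 CPM in WTEV. It was 1.65 and 2.51 CPM in dKOEV, 2.80 and 1.74 in dKOMut and 2.86 and 1.87 in dKOPRMT. All 6 double-knockout libraries lay below both wild-type libraries, and the 3 double-knockout groups overlapped. Hoxa7 fell in dKOEV (-1.49 ± 0.37, adjusted p = 0.0044), in dKOMut (-1.38 ± 0.37, adjusted p = 0.0057) and in dKOPRMT (-1.32 ± 0.37, adjusted p = 0.0067) against WTEV. The group means were 35.1%, 38.2% and 39.9% of the WTEV mean. These calls rest on WTEV replicate 1, the higher library: without it the adjusted p was 0.134, 0.167 and 0.172. They were also lost without dKOMut replicate 2 (0.0946) for dKOMut and without dKOPRMT replicate 2 (0.131) for dKOPRMT. Between dKOPRMT and dKOEV the Hoxa7 difference was 0.17 (95% interval -0.63 to 0.96).

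Hoxa10, the member on the other side of Hoxa9 and a factor that holds back myeloid and megakaryocytic maturation, was read at 15 counts or more in 3 libraries only. It stood at 1.37 and 1.02 CPM in WTEV and 0.955 and 0.537 in dKOEV. It was 0.326 CPM in both dKOMut libraries, and 0.251 and 0.152 in dKOPRMT. The 4 groups did not overlap, with the highest values in WTEV and the lowest in dKOPRMT. Hoxa10 fell in dKOPRMT against WTEV (-2.54 ± 0.90, adjusted p = 0.0375), a call that was lost with no count filter (0.0852) and without any 1 of WTEV replicate 1 (0.307), WTEV replicate 2 (0.174), dKOPRMT replicate 1 (0.186), dKOPRMT replicate 2 (0.299), dKOMut replicate 1 (0.0631) or dKOMut replicate 2 (0.0657). Against WTEV the difference was -1.86 ± 0.85 in dKOMut (adjusted p = 0.133) and -0.70 ± 0.78 in dKOEV (adjusted p = 0.633). With only the compared groups in the fit, the dKOMut difference passed (0.0489).

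Hoxa3, an anterior member of the cluster, was read at 27 and 15 counts in WTEV and at 0 and 6 in dKOEV, 2 and 7 in dKOMut and 6 and 3 in dKOPRMT. In CPM these are 1.32 and 0.808 in WTEV and at most 0.380 in the double-knockout libraries. A count of 0 in dKOEV replicate 1 allows a level of up to 0.191 CPM (3 counts, covering counting error only). The log2 differences from WTEV were -2.77 ± 1.07 in dKOEV (adjusted p = 0.0785), -2.18 ± 1.01 in dKOMut (0.141) and -2.21 ± 1.01 in dKOPRMT (0.120), and none passed the test. With only the compared groups in the fit, the difference passed in dKOMut (0.0445) and dKOPRMT (0.0169). Without dKOEV replicate 2 the dKOEV side was 1 library with 0 counts, so the size of that difference is not an estimate.

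Hoxa5, a factor with roles in myeloid and erythroid lineage choice, did not separate the groups. Its level was 1.27 and 0.808 CPM in WTEV, 0.764 and 2.24 in dKOEV, 1.31 and 0.597 in dKOMut and 0.501 and 1.06 in dKOPRMT. All groups overlapped, and the 2 dKOEV libraries were further apart than any pair of group means. The difference of dKOEV from WTEV was 0.55 with a 95% interval of -0.83 to 1.93 (adjusted p = 0.672). It was read at 10 to 50 counts per library.

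**Figure D2:**
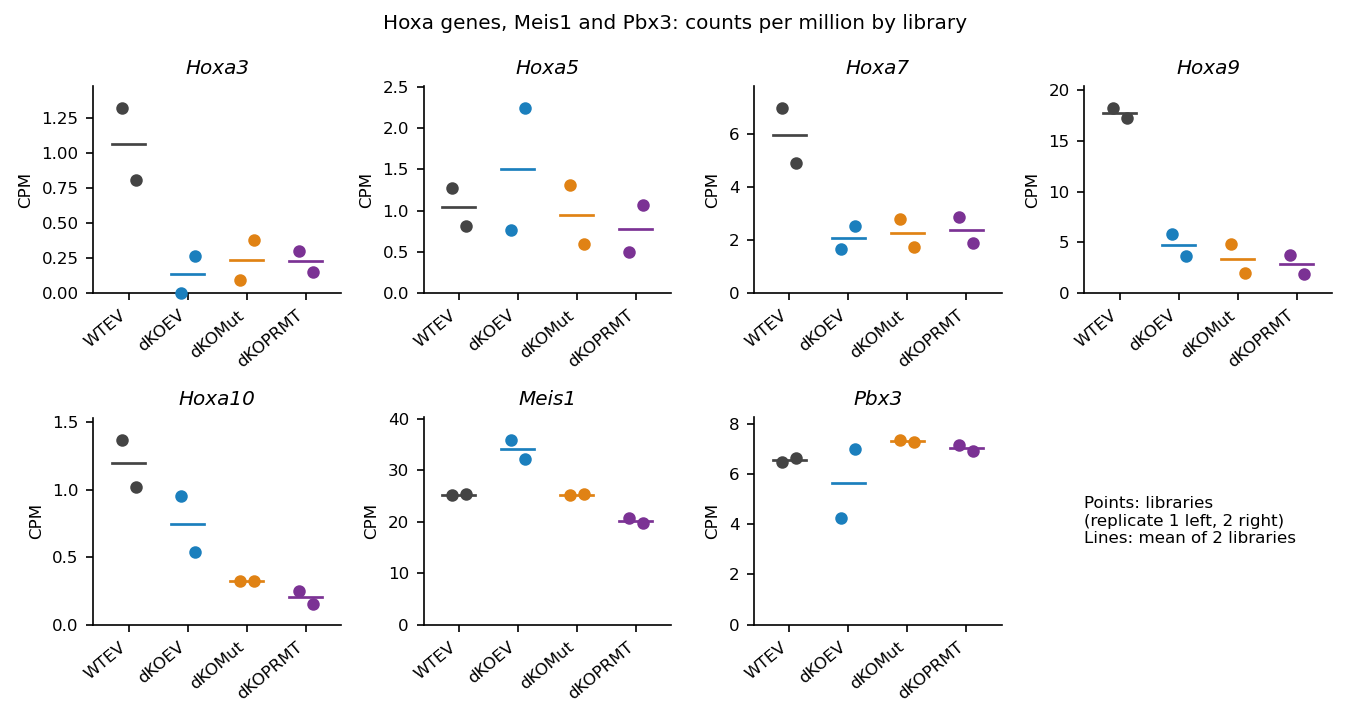
Level in CPM of each member in the 8 libraries (points, replicate 1 left and replicate 2 right) with the mean of each group (lines). Hoxa9 and Hoxa7 lie below both WTEV libraries in all 6 double-knockout libraries, and Meis1 is highest in dKOEV at 35.9 and 32.2 CPM.

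Along the cluster, the start site of Hoxa3 lies at -14.3 kb, that of Hoxa5 at -22.8 kb and that of Hoxa10 at 13.5 kb from that of Hoxa9. Of these and Hoxa7, only Hoxa7 was called against WTEV in all 3 double-knockout groups, as Hoxa9 was. Hoxa4, at -35.7 kb, was read at 15 to 32 counts per library and differed from WTEV by 0.52 ± 0.67, 0.06 ± 0.68 and -0.06 ± 0.68 in dKOEV, dKOMut and dKOPRMT. None of these differences passed the test. Hoxa2 and Hoxa6 were below the filter with 40 and 31 counts over all libraries, and Hoxa11 and Hoxa13 had 0.

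**Figure D3:**
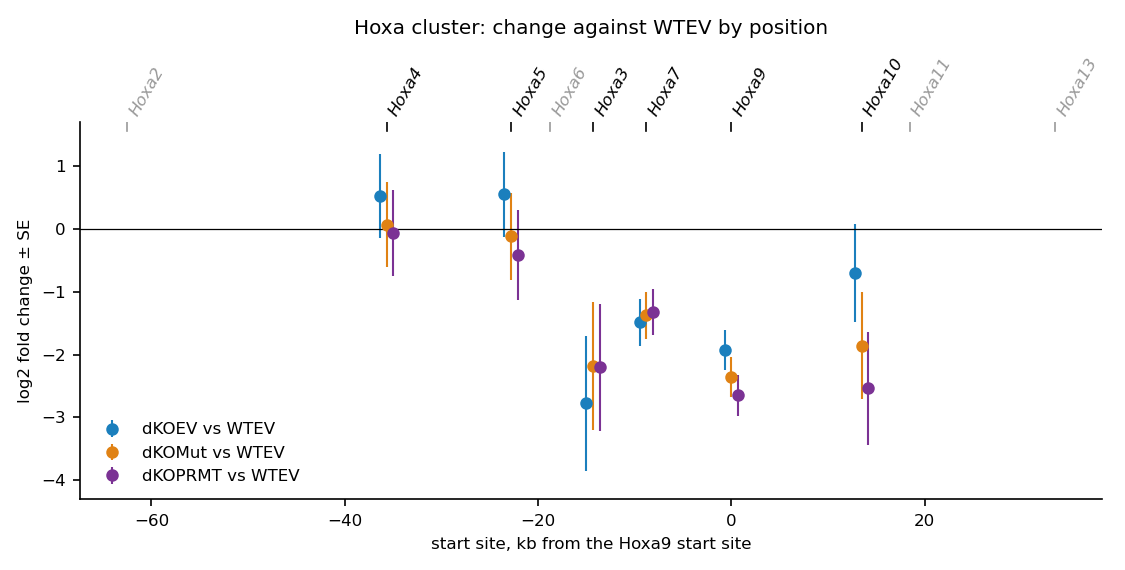
Log2 fold change ± SE against WTEV of Hoxa genes (points, coloured by group) by distance of the start site from that of Hoxa9 in kb; names in grey are genes below the filter. Estimates for Hoxa7 and Hoxa9 lie between -1.32 and -2.65, and those of Hoxa4 and Hoxa5 have error bars that reach 0.

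Meis1, the TALE cofactor that stabilises HOXA9 on its sites and is needed by stem cells, was the member with the most reads (4073 counts over the 8 libraries) and the one called between double-knockout groups. It stood at 25.2 and 25.3 CPM in WTEV and at 35.9 and 32.2 in dKOEV. It was 25.1 and 25.3 CPM in dKOMut and 20.6 and 19.7 in dKOPRMT. The dKOEV libraries were the highest and the dKOPRMT libraries the lowest, while dKOMut overlapped WTEV. Meis1 rose in dKOEV against WTEV (0.43 ± 0.12, adjusted p = 0.0095), which was 1.35-fold. That call was lost without WTEV replicate 1 (0.0839), WTEV replicate 2 (0.0820) or dKOEV replicate 1 (0.0739).

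Adding either form of PRMT1 to double-knockout cells went with less Meis1. In dKOPRMT against dKOEV it fell by 0.75 ± 0.12 on the log2 scale (adjusted p = 1.2e-05), to 59.3% of the dKOEV mean, and the call held in each alternative with adjusted p up to 0.0013. In dKOMut against dKOEV it fell by 0.43 ± 0.12 (adjusted p = 0.0118), a call lost without dKOEV replicate 1 (0.0832), dKOMut replicate 1 (0.0786) or dKOMut replicate 2 (0.0644). The direct difference between wild-type and inactive PRMT1 was -0.32 ± 0.12 (95% interval -0.57 to -0.08, unadjusted p = 0.0115, adjusted p = 0.173). Both dKOPRMT libraries were below both dKOMut libraries, but the difference did not pass the test. Prmt1 itself was higher in dKOMut than in dKOPRMT, so these groups differ in dose of the RNA as well as in the form of PRMT1. Against WTEV, Meis1 differed by -0.00077 ± 0.12 in dKOMut (95% interval -0.24 to 0.24). In dKOPRMT it fell by 0.32 ± 0.12, with an adjusted p of 0.0495 that rose above 0.05 under 5 other settings (0.0516 to 0.0727) and without WTEV replicate 1 (0.186), WTEV replicate 2 (0.194), dKOMut replicate 2 (0.0515), dKOPRMT replicate 1 (0.126) or dKOPRMT replicate 2 (0.231).

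Pbx3, the PBX protein most tied to HOXA9 in leukaemia, passed the test in none of the 6 comparisons. Its level was 6.46 and 6.62 CPM in WTEV, 4.26 and 6.99 in dKOEV, 7.36 and 7.27 in dKOMut and 7.17 and 6.93 in dKOPRMT. The 1 library apart was dKOEV replicate 1, and the other 7 lay within 6.46 to 7.36 CPM. Its log2 differences from WTEV were -0.20 (95% interval -0.70 to 0.31) in dKOEV, 0.16 (-0.33 to 0.66) in dKOMut and 0.11 (-0.39 to 0.60) in dKOPRMT.

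Counted over the members, 3 of 7 changed in dKOEV against WTEV (Hoxa7 and Hoxa9 lower, Meis1 higher), where 15.4% of all tested genes were called. Without WTEV replicate 1 only Hoxa9 remained. In dKOMut against WTEV 2 of 7 fell (Hoxa7 and Hoxa9), with 19.4% of all genes called, and without WTEV replicate 1 or dKOMut replicate 2 this was 1. With the compared groups alone in the fit it was 4. In dKOPRMT against WTEV 4 of 7 fell (Hoxa7, Hoxa9, Hoxa10 and Meis1), against 23.2% of all genes in either direction. That count was 2 with no count filter and 1 or 2 without any 1 of WTEV replicate 1, WTEV replicate 2, dKOMut replicate 2, dKOPRMT replicate 1 or dKOPRMT replicate 2. These 3 comparisons share the WTEV libraries. Each also counts Hoxa9, 1 of the deleted genes, whose call against WTEV was not independent of the design. Against dKOEV, 1 of 7 fell in dKOMut (11.3% of all genes called) and 1 of 7 in dKOPRMT (14.6%), in both cases Meis1. The dKOMut count was 0 without dKOEV replicate 1 or dKOMut replicate 2. Between dKOPRMT and dKOMut edgeR called 0 of 7, with 1 at an unadjusted p under 0.05, and DESeq2 and voom each called 0, while 3.11% of all genes were called.

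**Figure D4:**
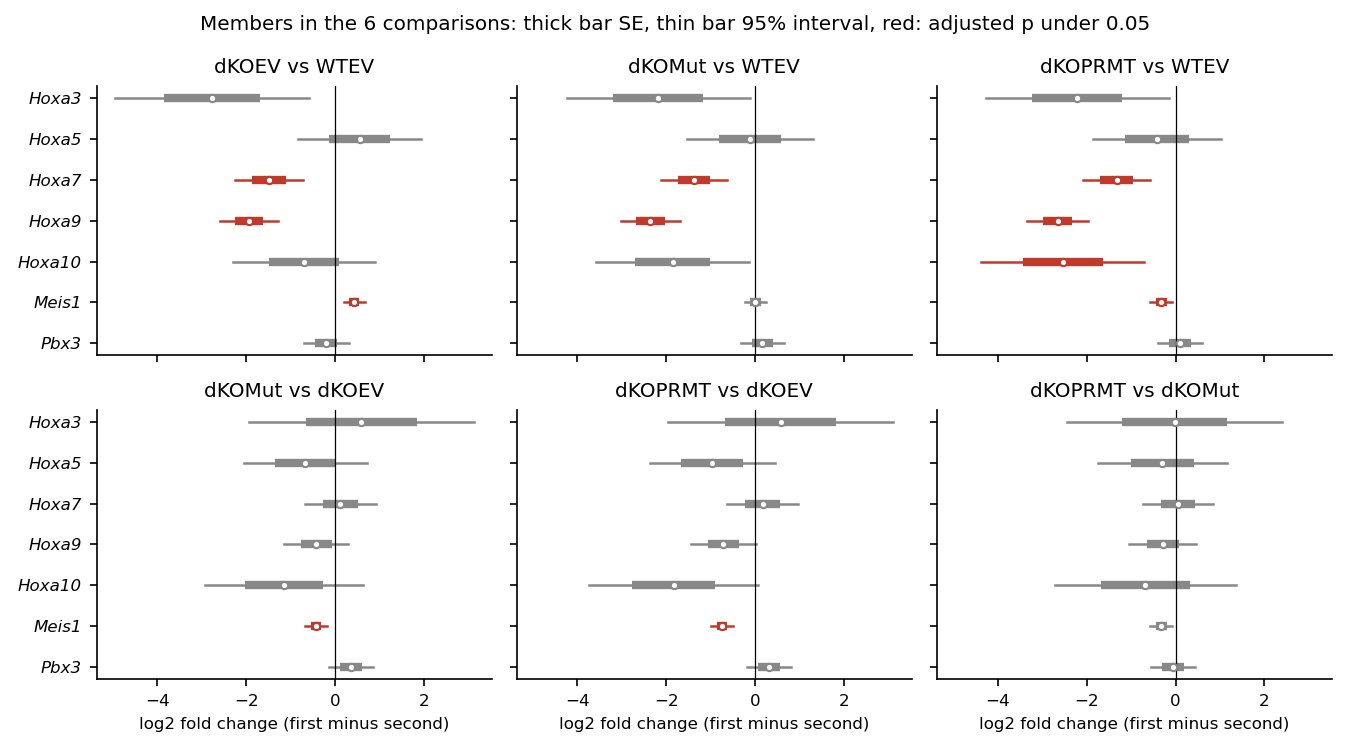
Log2 fold change (first group minus second, horizontal axis) of the 7 members in the 6 comparisons, with SE (thick bars) and 95% intervals (thin bars); red marks an adjusted p under 0.05. The Hoxa genes are called only against WTEV, and Meis1 is called in 4 comparisons, with estimates from -0.75 to 0.43.

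Of the 11 other listed genes of the Hoxa locus, 4 had 0 counts throughout and 3 were tested. Of these 3, 1 non-coding gene fell and 0 rose in dKOEV against WTEV, where 7% of all genes fell. In each other comparison 0 of the 3 were called. Hotairm1, a long non-coding RNA of the cluster's 3' end that is induced during myeloid maturation, was at 1.62 and 1.88 CPM in WTEV. It was at 0.318 and 0.0896 in dKOEV, 0.932 and 0.705 in dKOMut and 0.602 and 0.253 in dKOPRMT. Both dKOEV libraries were below the filter level, so Hotairm1 entered the test through groups where it was higher. The count of called genes therefore cannot be weighed against the share of all genes. Hotairm1 fell in dKOEV (-3.16 ± 0.88, adjusted p = 0.0111), on 5 and 2 counts. The call was lost without WTEV replicate 1 (0.0992), WTEV replicate 2 (0.152) or dKOEV replicate 2 (0.0953). It did not pass in dKOMut (-1.08 ± 0.74, adjusted p = 0.357) or dKOPRMT (-2.02 ± 0.79, adjusted p = 0.0608).

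Some genes of the Hoxb cluster, also active in stem cells, were called higher against WTEV. Of 28 Hoxb, Hoxc and Hoxd genes, 17 had 0 counts throughout, 5 were tested, and 4 of those 5 rose in dKOEV against WTEV, where 8.44% of all genes rose. In dKOMut 1 of 5 rose and in dKOPRMT 2 of 5, beside 9.41% and 11% of all genes. Hoxb8 reached the filter level in the dKOEV libraries only, and Hoxb5 in those of dKOEV and dKOPRMT only. Both entered the test through groups where they were high, so these counts cannot be weighed against the shares of all genes. Hoxb5, a marker of long-term stem cells, had 0 counts in both WTEV libraries and 29 and 21 in dKOEV, at least 9.03-fold higher against a floor of 3 counts per library (adjusted p = 6.8e-04), a call kept without any 1 library. It was also called in dKOMut, at least 2.24-fold higher (adjusted p = 0.0289), and in dKOPRMT, at least 3.92-fold higher (adjusted p = 0.0054), and both calls were lost without either WTEV library (0.208 and 0.202, and 0.0918 and 0.0847). The dKOMut call was also lost without dKOMut replicate 1 (0.124) or dKOMut replicate 2 (0.0504). Hoxb8, whose product blocks myeloid maturation, also had 0 counts in WTEV and 31 and 25 in dKOEV, at least 10.03-fold higher (adjusted p = 0.0015). It was at 0 to 7 counts in dKOMut and dKOPRMT and fell in dKOMut against dKOEV (adjusted p = 0.0148). Hoxb3 was at 0.784 and 1.62 CPM in WTEV and 1.65 and 6.90 in dKOEV (1.87 ± 0.49, adjusted p = 0.0066). It was at 3.36 and 4.55 CPM in dKOPRMT (1.73 ± 0.49, adjusted p = 0.0083), a call lost without WTEV replicate 1 (0.114) or dKOPRMT replicate 2 (0.1002). Hoxb2 rose from 0.539 and 0.700 to 2.93 and 1.84 CPM (1.93 ± 0.64, adjusted p = 0.0372). Hoxb4, read at 5.39 to 7.87 CPM, differed from WTEV by 0.26 ± 0.23 in dKOEV (95% interval -0.21 to 0.74). These are low counts, and the number of Hoxb genes called fell from 4 to 1 without WTEV replicate 1 and to 2 without WTEV replicate 2. The Hoxb3 call in dKOEV was lost without dKOEV replicate 2 (0.627) or WTEV replicate 1 (0.0998), and the Hoxb2 call without either WTEV library (0.270 and 0.176), dKOEV replicate 1 (0.158) or either dKOPRMT library (0.0563 and 0.0659). That of Hoxb8 in dKOEV was lost without either WTEV library (0.0591 and 0.0564), and that in dKOMut without dKOEV replicate 1 (0.0883) or dKOMut replicate 1 (0.232).

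Among the other TALE genes and PBX partners, Pbxip1, which encodes a PBX-interacting protein, was at 77.0 and 76.9 CPM in WTEV and at 109 to 113 CPM in all 6 double-knockout libraries. It rose in dKOEV (0.51 ± 0.06, adjusted p = 1.5e-07), dKOMut (0.55 ± 0.06, adjusted p = 1.0e-08) and dKOPRMT (0.55 ± 0.06, adjusted p = 9.9e-09). Leaving out any 1 library kept these calls. Pknox2, a relative of MEIS, had 2 and 1 counts in WTEV and 7 to 31 in the double-knockout libraries, and was called higher in all 3 groups (adjusted p = 0.0050, 0.0343 and 0.0217). It was below the filter level in both WTEV libraries, so it entered the test through the groups where it was high. Each of those calls was lost without WTEV replicate 1 (0.0782, 0.183 and 0.137) or WTEV replicate 2 (0.127, 0.285 and 0.216). The dKOMut call was also lost without dKOMut replicate 1 (0.366) or either dKOPRMT library (0.0690 and 0.0670), and the dKOPRMT call without either dKOPRMT library (0.110 and 0.0913). Pknox1, a further MEIS relative, lay at 42.2 to 52.1 CPM and passed in no comparison, with an interval of -0.26 to 0.12 for dKOEV against WTEV. Pbx2, a broadly expressed PBX gene, averaged 52.0 CPM in WTEV and 66.1 in dKOPRMT (0.35 ± 0.09, adjusted p = 0.0022), a call lost without dKOPRMT replicate 1 (0.0891). Pbx4 averaged 3.01 CPM in WTEV and 0.780 in dKOPRMT (-1.94 ± 0.56, adjusted p = 0.0094), lost without WTEV replicate 1 (0.153) or dKOPRMT replicate 2 (0.102). Tgif1, a TALE repressor, fell in dKOPRMT against WTEV (-0.41 ± 0.12, adjusted p = 0.0108) and against dKOEV (-0.43 ± 0.12, adjusted p = 0.0118). The first of these calls was lost without WTEV replicate 1 (0.0794), WTEV replicate 2 (0.0729) or dKOPRMT replicate 2 (0.125), and the other without dKOPRMT replicate 2 (0.150).

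**Figure D5:**
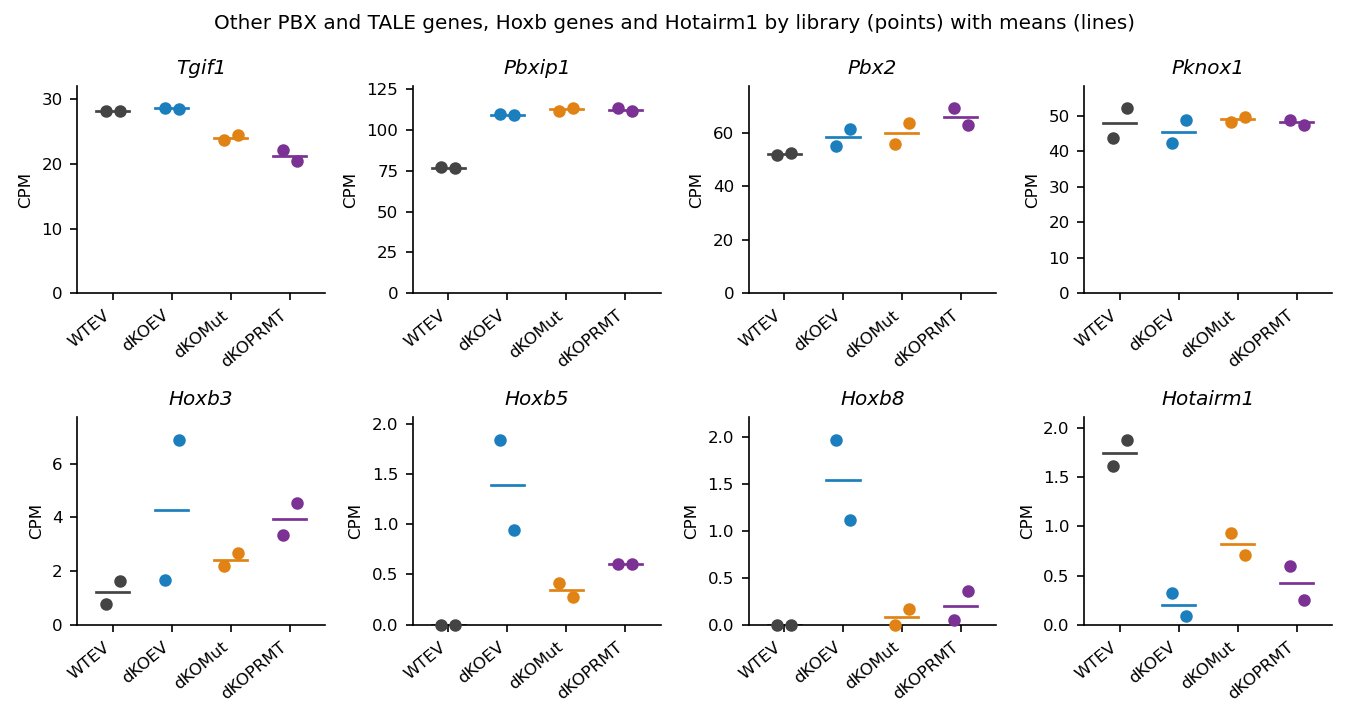
Level in CPM of Tgif1, Pbxip1, Pbx2, Pknox1, Hoxb3, Hoxb5, Hoxb8 and Hotairm1 in the 8 libraries (points) with the mean of each group (lines). Pbxip1 is at 77.0 and 76.9 CPM in WTEV and above 109 elsewhere, and Hoxb5 and Hoxb8 are at 0 in WTEV.

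Genes for regulators of Hox chromatin were counted in the same way. Of 26 tested activators (KMT2A and its partners, the DOT1L complex, acetyltransferases and fusion partners such as Nup98), 3 fell and 0 rose in dKOEV against WTEV, 2 fell and 0 rose in dKOMut, and 3 rose and 3 fell in dKOPRMT. The share of all genes that fell was 7%, 9.96% and 12.2% in these comparisons, and 8.44%, 9.41% and 11% rose. Npm1, whose cytoplasmic mutant is tied to high HOXA9 in leukaemia, was at 1389 CPM on average in WTEV and 1142 in dKOEV (-0.28 ± 0.03, adjusted p = 1.0e-07) and stayed lower in dKOMut (-0.18 ± 0.03, adjusted p = 1.1e-04) and dKOPRMT (-0.21 ± 0.03, adjusted p = 7.1e-06). Brpf1, a scaffold of the MOZ acetyltransferase complex, rose in dKOPRMT against WTEV (0.43 ± 0.07, adjusted p = 2.6e-06) and against dKOEV (0.39 ± 0.07, adjusted p = 2.3e-05). Mllt3, the AF9 reader that maintains stem cells, fell in dKOPRMT against dKOEV from 17.5 to 10.3 CPM on average (-0.76 ± 0.16, adjusted p = 8.5e-04). Dot1l, the H3K79 methyltransferase, fell in dKOMut against WTEV (-0.34 ± 0.07, adjusted p = 3.7e-04). Leaving out any 1 library kept these 7 calls. The count of 3 that fell in dKOEV ran from 1 to 4 without single libraries, being 1 without WTEV replicate 1, WTEV replicate 2 or dKOEV replicate 2, and 2 without either dKOPRMT library. In dKOPRMT the 3 that rose became 1 without WTEV replicate 2 or dKOPRMT replicate 2, and the 3 that fell became 1 without WTEV replicate 1. Without that library 1 activator also rose in dKOEV and 2 in dKOMut.

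Of 26 Polycomb genes, whose products silence Hox clusters, 2 fell and 0 rose in dKOEV against WTEV. These were Suz12, a core subunit of Polycomb repressive complex 2 (-0.15 ± 0.05, adjusted p = 0.0398) and Cbx2, a chromodomain subunit of complex 1 (-0.77 ± 0.26, adjusted p = 0.0421). Both calls were lost without WTEV replicate 2 (0.534 and 0.156), dKOEV replicate 1 (0.0743 and 0.118), dKOEV replicate 2 (0.0773 and 0.0579) or dKOPRMT replicate 2 (0.0616 and 0.0569). That of Cbx2 was also lost without WTEV replicate 1 (0.235) or dKOPRMT replicate 1 (0.0530). Over all genes 7% fell and 8.44% rose in dKOEV against WTEV. In dKOMut against WTEV 2 Polycomb genes rose and 1 fell (9.41% and 9.96% of all genes). In dKOPRMT 1 rose and 0 fell (11% and 12.2%). Against dKOEV, 1 rose and 0 fell in dKOMut (4.24% and 7.08%). There 2 rose and 1 fell in dKOPRMT (5.96% and 8.67%). Between dKOPRMT and dKOMut 0 rose and 1 fell (1.43% and 1.68%).

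A list of 23 genes reported in other work as targets of HOXA9 or MEIS1 moved in both directions. In dKOEV against WTEV 5 rose and 5 fell (8.44% and 7% of all genes), in dKOMut 2 rose and 8 fell (9.41% and 9.96%), and in dKOPRMT 1 rose and 10 fell (11% and 12.2%). The list's median log2 differences were -0.03, -0.14 and -0.23, beside -0.00051, -2.6e-05 and 0.0010 over all tested genes. Flt3 and Cd34 are also among the HSPC markers below, and Pf4 among the megakaryocyte markers. Flt3, a cytokine receptor of early progenitors and a much used HOXA9-MEIS1 readout, fell from 33.3 CPM on average in WTEV to 16.4 in dKOEV (-1.02 ± 0.14, adjusted p = 6.3e-07) and 17.8 in dKOMut (-0.91 ± 0.13, adjusted p = 1.9e-06). Cd34, a surface marker of progenitors, fell from 161 to 125 CPM in dKOEV (-0.37 ± 0.06, adjusted p = 6.1e-06) and to 106 in dKOPRMT (-0.60 ± 0.06, adjusted p = 1.2e-10). Mycn, a MYC family gene, was highest in dKOEV, as Meis1 was: it rose from 11.7 to 22.5 CPM in dKOEV (0.95 ± 0.16, adjusted p = 3.8e-05) and fell again in dKOMut (-0.96 ± 0.16, adjusted p = 3.6e-05) and dKOPRMT (-1.17 ± 0.16, adjusted p = 1.0e-06) against dKOEV. Pf4, a platelet chemokine and Meis1 target, fell from 118 CPM in dKOEV to 63.5 in dKOMut (-0.90 ± 0.07, adjusted p = 3.5e-12) and 62.7 in dKOPRMT (-0.92 ± 0.07, adjusted p = 1.6e-12). Ccnd3, a G1 cyclin, rose in dKOEV (0.26 ± 0.04, adjusted p = 3.2e-05), dKOMut (0.30 ± 0.04, adjusted p = 1.5e-06) and dKOPRMT (0.37 ± 0.04, adjusted p = 2.7e-08) against WTEV. Leaving out any 1 library kept these 12 calls. The 5 that rose in dKOEV became 2 or 3 without any 1 of the WTEV or dKOEV libraries, and the 8 that fell in dKOMut became 5 without dKOMut replicate 2. The 2 that rose in dKOMut became 1 without WTEV replicate 1 or dKOMut replicate 2.

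Between dKOPRMT and dKOEV 2 targets rose and 9 fell (5.96% and 8.67% of all genes), between dKOMut and dKOEV 2 rose and 6 fell (4.24% and 7.08%), and between dKOPRMT and dKOMut 1 rose and 3 fell (1.43% and 1.68%). Mef2c, a MADS-box factor of progenitors, fell in dKOPRMT against dKOEV from 88.0 to 60.7 CPM (-0.53 ± 0.08, adjusted p = 1.3e-06). Cd34 was the target with the smallest p between wild-type and inactive PRMT1, at 106 CPM in dKOPRMT and 146 in dKOMut (-0.45 ± 0.06, adjusted p = 7.8e-07). Leaving out any 1 library kept both calls. The count of 6 that fell in dKOMut became 4 without dKOEV replicate 1 or dKOMut replicate 1, and that of 3 between the PRMT1 groups became 2 without dKOMut replicate 2 and 1 without dKOPRMT replicate 1. Of the rises, the 2 in dKOPRMT against dKOEV became 1 without dKOEV replicate 1 or dKOPRMT replicate 2, and the 2 in dKOMut became 1 without dKOMut replicate 1. The 1 between the PRMT1 groups became 0 without dKOMut replicate 1, dKOPRMT replicate 1 or dKOPRMT replicate 2.

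Marker genes of other cell types moved across the same groups, and in bulk RNA fewer cells of a type and less RNA per cell cannot be told apart. All 14 HSPC markers were read, and they moved in both directions. Against WTEV 3 rose and 5 fell in dKOEV (8.44% and 7% of all genes). In dKOMut 3 rose and 5 fell (9.41% and 9.96%), and in dKOPRMT 2 rose and 6 fell (11% and 12.2%). Kit averaged 141 CPM in WTEV, 148 in dKOEV, 159 in dKOMut and 171 in dKOPRMT. The summed level of the 14 went from 1433 to 1469 CPM in WTEV to 1379 to 1398 in dKOEV, 1284 to 1311 in dKOMut and 1216 to 1242 in dKOPRMT. The 11 neutrophil markers found summed to 16641 to 16657 CPM in WTEV, 22254 to 23303 in dKOEV, 29487 to 30118 in dKOMut and 29612 to 29981 in dKOPRMT. Of these 11, 9 rose and 1 fell in dKOEV, and 11 rose in dKOMut and in dKOPRMT against WTEV. The 7 megakaryocyte markers, which include the Meis1 target Pf4, summed to 294 to 310 CPM in WTEV, 345 to 359 in dKOEV, 223 to 225 in dKOMut and 192 to 197 in dKOPRMT, so that dKOEV was highest and dKOPRMT lowest, as for Meis1. Monocyte and macrophage markers (10) summed to 4790 to 4879 CPM in WTEV and 2513 to 3858 in the double-knockout libraries. The largest in WTEV were Gpnmb and Lpl, at 1810 and 1242 CPM on average. Of the 10, 0 rose and 6 fell in dKOEV, 0 rose and 8 fell in dKOMut, and 1 rose and 8 fell in dKOPRMT against WTEV. Mast cell and basophil markers (7) summed to 1470 to 1513 CPM in WTEV and 552 to 989 in the double-knockout libraries. Erythroid markers (8) summed to 404 to 413 CPM in WTEV and 298 to 359 elsewhere, with Hba-a1 and Hbb-bs at 0 in every library. T and NK cell markers (7) summed to 77.7 to 115 CPM with Cd3e at 0, and B cell markers (6) to 7.89 to 12.9. The erythroid, T and NK, and B cell sums came mostly from Tfrc, Nkg7 and Cd79b. These averaged 307, 94.1 and 9.62 CPM over the 8 libraries. The part of these shifts in the levels of the Hoxa genes and Meis1 was not tested.

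The genes nearest in pattern to each member were found by the root mean square difference of mean-centred log2 CPM over the 8 libraries, among 11555 tested genes at 1 CPM or more. For Meis1 the nearest was Adgrg1, a surface receptor of stem cells, at 0.0620 log2 units, with means of 302, 381, 300 and 241 CPM in WTEV, dKOEV, dKOMut and dKOPRMT. H1fx (0.0774) and Acsf2 (0.0778) followed. For Hoxa9 the nearest were Rbm44 (0.317), Nlrp6 (0.439) and Ank1 (0.463), and for Hoxa7 they were Emid1 (0.222), Saa3 (0.253) and Pdgfrb (0.306). For Hoxa10 they were Basp1 (0.239) and the interferon-induced genes Ifit1 (0.271) and Ifit3b (0.277), which averaged 84.6 and 23.7 CPM in WTEV and 23.8 and 7.25 in dKOPRMT. For Pbx3 they were Coq4 (0.0818), Fars2 (0.0894) and Trmt10c (0.0900), for Hoxa5 Trim58 (0.189), Flywch2 (0.237) and 9830147E19Rik (0.286), and for Hoxa3 Adamts3 (0.554), Cdh17 (0.601) and Emid1 (0.606). Emid1 was thus near both Hoxa3 and Hoxa7. These distances rest on 8 libraries that share their scaling.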

How the data were processed

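Per the labels' protocols, total RNA came from an RNeasy Plus Micro extraction, and the library kit (NEB Ultra II Directional) keeps the strand. Per the submitters' processing notes, Trim Galore 0.6.6, STAR 2.7.6a and featureCounts were used with GRCm38/mm10; the featureCounts version and strand setting are not stated there. The authors deposited raw counts per gene for 24421 genes, with coordinates and length; 0 columns belonged to other samples. Counts were tested with edgeR 4.0.16 (R 4.3.3; quasi-likelihood, robust dispersion, TMM, filterByExpr) in 1 fit of the 4 groups to all libraries and no covariate; 12744 genes passed the filter. The 6 pairwise comparisons were adjusted by Benjamini-Hochberg, threshold 0.05. Each SE is the log2 fold change over the root of its F, and intervals are 95%. Replicates differed beyond sampling noise (chi-square per degree of freedom 3.65 to 6.43). The members and gene lists were chosen with earlier results of these data known. The text names all members, of each list up to 4 called genes of smallest p per comparison (freely for Hox and TALE genes), and the 3 genes nearest each member. Alternatives were DESeq2 size factors, no count filter, a filter of 1 CPM in 2 libraries, DESeq2 1.42.0, limma 3.58.1 voom, compared groups alone, a replicate block, non-robust dispersion and leaving out each library. For gene lists, leaving out libraries was added after seeing the data. The scripts were tested on simulated data. Another scaling moved the median of all genes by at most 0.0201 on the log2 scale. Some genes of the lists are not reported here.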

Additional observations from a re-analysis of the deposited data

How the results depend on the processing

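The falls of Hoxa9 against WTEV and of Meis1 in dKOPRMT against dKOEV kept their direction and their call under each alternative run. The number of members called was 4 in dKOMut against WTEV with the compared groups alone, and 2 in dKOPRMT against WTEV with no count filter. Without single libraries it ran from 1 to 4 in dKOEV against WTEV, 1 to 2 in dKOMut against WTEV, 1 to 4 in dKOPRMT against WTEV and 0 to 1 in dKOMut against dKOEV. Over all genes the calls without single libraries ran from 1149 to 1996 in dKOEV against WTEV, 1954 to 3394 in dKOPRMT against WTEV, 1058 to 1945 in dKOPRMT against dKOEV and 171 to 550 in dKOPRMT against dKOMut. The following differences, none of them called with all libraries in the fit, changed sign. Meis1 in dKOMut against WTEV was 0.00182 with DESeq2 size factors and with DESeq2, 0.000569 with no count filter and 0.00345 with the stricter filter. Hoxa3 in dKOPRMT against dKOMut was 0.189 with voom. Without single libraries, the log2 differences from WTEV ran from -0.455 to 1.09 for Hoxa5 and -0.623 to 0.0900 for Pbx3 in dKOEV, from -0.801 to 0.323 for Hoxa5 and -0.00358 to 0.00471 for Meis1 in dKOMut, and from -1.05 to 0.0228 for Hoxa5 in dKOPRMT. For dKOMut against dKOEV they ran from -0.640 to 5.18 for Hoxa3, -1.34 to 0.334 for Hoxa5, -0.277 to 0.469 for Hoxa7 and -1.24 to 0.0686 for Hoxa9, whose -1.24, without dKOMut replicate 1, was called (adjusted p = 0.0427). For dKOPRMT against dKOEV they ran from -0.240 to 5.16 for Hoxa3, -1.59 to 0.0363 for Hoxa5 and -0.168 to 0.518 for Hoxa7. For dKOPRMT against dKOMut they ran from -0.732 to 1.22 for Hoxa3, -0.928 to 0.383 for Hoxa5, -0.286 to 0.443 for Hoxa7 and -0.881 to 0.526 for Hoxa9. The Hoxa3 differences of 5.18 and 5.16 from dKOEV rest on dKOEV replicate 1 alone, with 0 Hoxa3 counts, so their size is not an estimate. The cause of these changes of sign was not tested. Hoxa3, Hoxa5 and Hoxa10 were read at 50 counts or fewer per library, which limits what can be seen for them.

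Over 9945 genes, same-numbered libraries showed no shared deviation (correlations of -0.0400 to 0.0203). This cannot show that they are unpaired, because a shared mouse or day need not move most genes. Among the members, Hoxa9 and Hoxa10 were higher in replicate 1 in every group, though Hoxa10 hardly so in dKOMut. The other members were not. With the replicate number as a block, 3, 2, 3, 1, 1 and 0 members were called in dKOEV, dKOMut and dKOPRMT against WTEV, dKOMut and dKOPRMT against dKOEV, and dKOPRMT against dKOMut. Over all genes the block gave 1952, 2462, 2953, 1414, 1853 and 403 calls, against 1967, 2468, 2955, 1442, 1864 and 396 without it. Under the block Hoxa3 in dKOPRMT against dKOMut was 0.0366.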
